A study of Mus musculus with 4 samples.

Results

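Kinesins are motor proteins that walk along or take apart microtubules. The genes described here are those whose symbol is Kif followed by a digit and that have a probe set annotated to them alone. The rule gave 37 genes with 99 probe sets, of 18193 genes and 45037 probe sets measured. Of these genes 12 were grouped as mitotic kinesins, 14 as transport kinesins and 11 as other kinesins of cilia, centrioles and microtubule ends. Kif2a, which also acts at spindle poles, was placed with the other kinesins. This grouping came from textbook knowledge of the proteins, but was made with earlier results of these data known. A further probe set annotated to Kif27 and another gene together was left out.

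Affymetrix arrays measured the transcripts of LSK cells, which lack lineage markers, carry c-Kit and Sca1, and include the blood stem cells and multipotent progenitors of the marrow. The cells came from the femurs of mice of a B6/129 background called WT in the labels, and were divided by their c-Myc-eGFP signal, a fusion of the transcription factor c-Myc with a green fluorescent protein. The Hi and the Lo group have 2 arrays each. Both groups were sorted on the fusion protein and so carried it, whatever WT refers to, and the labels name no treatment or further allele. Age, the number of mice per array and whether the 2 arrays of a group came from separate mice are not given in the sources used here, so p-values measure only the spread between these arrays, which may be technical. The stem and progenitor cells in a sort are a mixture, and in such bulk samples fewer cells of a type and less RNA per cell cannot be told apart.

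Mitotic kinesins build and move the spindle, pull or push chromosomes and close off the midzone between daughter cells, and their genes are known to be transcribed late in the cell cycle. Transport kinesins carry vesicles, mitochondria and other cargo outward along microtubules, and many were first studied in neurons. Most blood stem cells rest outside the cell cycle, while their progeny divide. The comparison of Hi with Lo asks which kinesin transcripts differ between cells with much and with little c-Myc.

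The promoters of several kinesins whose levels are described further on are shown first. Most mitotic kinesins hold a short motif that was found in 1 transport kinesin and in 3 other kinesins, Kif24, Kif26b and Kif27. That motif was found in 21.7% of all genes with a promoter window. RefSeq promoter windows of build GRCm38.p6, from 250 bases before to 50 bases after the annotated start, were found for 31 of the 37 genes. Kif13b, Kif20a, Kif21b, Kif28, Kif5a and Kif5b had no window. Both strands were searched for the CHR, known as a cell cycle element (the letters TTTGAA, or else TTCGAA), the CCAAT box (CCAAT), the E-box that Myc is known to bind (CACGTG) and 4 forms of an E2F site (spelled TTCGCGC in one form, TTGGCGC in another, then TTCCCGC and lastly TTGCCGC). An E2F form read on the other strand can overlap a CCAAT box. In the lines that follow, capitals mark all matches to these letters. Sequences run toward the start used for the window and end before the most upstream annotated start of the gene, and for Kif24 and Kif22 a piece of 30 bases shows the CHR that lies past that point.
Kif24, chr4:41464920-41465098, minus strand: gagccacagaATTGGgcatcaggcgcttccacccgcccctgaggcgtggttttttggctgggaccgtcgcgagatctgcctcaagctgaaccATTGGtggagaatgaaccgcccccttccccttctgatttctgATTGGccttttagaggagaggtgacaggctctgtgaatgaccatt
Kif24 CHR piece, chr4:41464859-41464888, minus strand: cgtcggcgcgcgcgTTCGAActggcgcttg
Kif11, chr19:37376232-37376381, plus strand: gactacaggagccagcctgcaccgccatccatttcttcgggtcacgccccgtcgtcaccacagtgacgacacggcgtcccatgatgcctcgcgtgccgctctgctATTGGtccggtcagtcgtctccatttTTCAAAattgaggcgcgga
Kif22, chr7:127042468-127042570, minus strand: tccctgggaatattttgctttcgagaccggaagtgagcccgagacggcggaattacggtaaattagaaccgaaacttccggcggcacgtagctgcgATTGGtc
Kif22 CHR piece, chr7:127042421-127042450, minus strand: ggggccccggtaaTTCAAAagagagaagcg
Kif15, chr9:122950931-122951080, plus strand: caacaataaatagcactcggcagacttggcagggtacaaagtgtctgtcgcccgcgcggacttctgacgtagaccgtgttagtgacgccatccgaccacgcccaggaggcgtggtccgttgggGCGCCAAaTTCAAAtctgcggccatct
Kif3c, chr12:3364982-3365131, plus strand: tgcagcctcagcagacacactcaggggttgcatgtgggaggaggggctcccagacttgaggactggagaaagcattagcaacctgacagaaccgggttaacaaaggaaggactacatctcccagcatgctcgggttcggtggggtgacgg
Kif3b, chr2:153291266-153291394, plus strand: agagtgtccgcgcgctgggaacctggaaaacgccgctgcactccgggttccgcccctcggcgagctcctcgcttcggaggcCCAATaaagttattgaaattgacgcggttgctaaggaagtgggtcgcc

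The Kif24 window holds 4 CCAAT boxes, beginning 240, 158, 116 and 74 bases before the start, and a CHR beginning 26 bases before it. The last of these CCAAT boxes crosses the more upstream annotated start and is therefore not shown. In Kif11 a CCAAT box begins 45 bases and a CHR 19 bases before the start, and in Kif22 they begin 54 and 17 bases before it, with a further CCAAT box at 233 and a further CHR at 215 bases that are not shown. In Kif15 the CHR begins 19 bases before the start and follows an E2F form that begins 27 bases before it, and a further CHR begins 234 bases before it and is not shown. Kif3c holds none of these motifs, and Kif3b holds a CCAAT box alone. Kif24, Kif22 and Kif3b have an annotated start 71, 47 and 21 bases upstream of the one used.

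A CHR was found in 9 of the 11 mitotic kinesins with a window, against 21.7% of the 27025 genes with a promoter window. The 9 were Kif2c, Kif4, Kif11, Kif14, Kif15, Kif18b, Kif20b, Kif22 and Kif23. The same letters were found in 1 of 10 transport kinesins, Kif1a, and in 3 of 10 other kinesins, Kif24, Kif26b and Kif27. A CCAAT box was found in 7 of 11 mitotic, 3 of 10 transport and 4 of 10 other kinesins, against 41.1% of all genes. A CCAAT box together with a CHR was found in 6 of 11 mitotic, 0 of 10 transport and 3 of 10 other kinesins, against 8.61% of all genes. The E-box was found in 1 of the 31 kinesin genes, Kif1a, against 8.09% of all genes. An E2F form was found in Kif15, Kif18a, Kif16b, Kif2a and Kif6, against 10.9% of all genes. These are matches of letters and not measured sites, and the motifs were chosen with earlier results of these data known.

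All differences below are Hi minus Lo on the log2 scale of the intensities, fitted with limma over all 45037 probe sets, with their standard error (SE). Unless stated, a gene is given by its brightest probe set, the one whose average across the arrays is highest. No kinesin probe set passed a Benjamini-Hochberg adjusted p of 0.05, and 0% of all probe sets did (smallest adjusted p = 0.0839). At an unadjusted limma p under 0.05, 21 of the 99 kinesin probe sets were higher and 5 lower in Hi, against 9.05% higher and 8.91% lower of all probe sets. Fits with 1 value per gene, which adjust over 18193 genes, called 3 kinesin genes higher after averaging a gene's probe sets (Kif24, Kif20a and Kif18b; background 1.39%). With the brightest probe set they called 2 higher (Kif24 and Kif20a; background 1.04%), and neither fit called a kinesin lower (backgrounds 1.52% and 1.18%).

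Kit, the gene of the c-Kit receptor by which LSK cells are gated, was bright in both groups, at 11.39 and 11.58 on the log2 scale in Hi and 11.95 and 11.55 in Lo. Sca1 was not analysed here. Cd34 and Flt3, which subdivide LSK cells, were bright as well, between 12.30 and 12.92. A dim limit was set on each array by the highest reading among 27 controls for bacterial transcripts, which was 4.74 to 4.87 on that scale. Of 10 lineage markers 6 were measured and all 6 exceeded the limit on 4 arrays. They were Ptprc, which leukocytes in general express (11.10 to 11.83), Cd3e (5.24 to 5.71), Itgam (4.79 to 5.73), Cd4 (7.94 to 8.49), Ms4a1 (7.52 to 8.71) and Cd8a. Cd8a read 5.62 and 5.44 in Hi and 6.88 and 6.55 in Lo, a difference of -1.19 ± 0.19. The limit is low, as 4918 of 18193 genes never passed it. The median over all genes was 7.70 to 7.92, above Cd3e, Itgam and Cd8a. By this limit the 6 transcripts were not absent from the sorted cells' RNA, but whether mature cells were present was not tested. Summed, the 6 markers reached 2881 and 3108 on the Hi arrays against 4234 and 4324 on the Lo arrays, but Ptprc is the brightest of them, and the differences of Cd4 (0.35) and Itgam (0.26) lay above 0 while the other 4 lay below. Other cell type markers differed between the groups too. The summed intensity of 10 erythroid genes came to 27492 and 30473 on the Hi arrays against 15628 and 15945 on the Lo arrays. Car2 is the brightest of these genes on each array, and its difference lay below 0, at -0.11. Of the 10 erythroid differences 7 lay above 0 and 3 below, with a median of 1.84. The sum over 9 granulocyte-monocyte genes came to 58702 and 54333 on the Hi arrays against 25007 and 23554 on the Lo arrays. For 10 long-term stem cell genes the sum reached 8354 and 7995 in Hi against 20104 and 18268 in Lo. Alas2, the erythroid heme enzyme gene, passed the dim limit on 0 arrays. The Gapdh control at the 3′ end of the transcript exceeded that at the 5′ end, a sign of RNA quality, by 0.63 and 0.65 in Hi and by 0.74 and 0.78 in Lo. The Actb controls differed likewise by 0.60 and 0.55 on the Hi arrays against 0.84 and 0.57 on the Lo arrays, with overlapping groups. The part of these values in the kinesin differences was not tested.

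Among the mitotic kinesins, transcripts were higher in cells with high c-Myc-eGFP, with a median difference of 0.97 over 12 genes against 0.030 over all genes. All 12 differences lay above 0, as did 53.6% over all genes, and they ran from 0.018 for Kif2b to 1.47 for Kif18b. The Hi arrays both exceeded the Lo arrays in 10 of the 12 genes, against 30% of all genes. An unadjusted limma p under 0.05 in the higher direction was reached by 6 of the 12, against 9.25% of all genes. Leaving out any 1 array gave 11 or 12 differences above 0, and the median was lowest, 0.71, without Hi replicate 1. Kif15 and Kif2b never passed the dim limit, so their differences carry no fold, and the median over the other 10 genes was also 0.97. In 9 of those 10 both Hi arrays exceeded the Lo arrays, against 3679 of the 12660 genes with a mean above the limit.

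**Figure D1:**
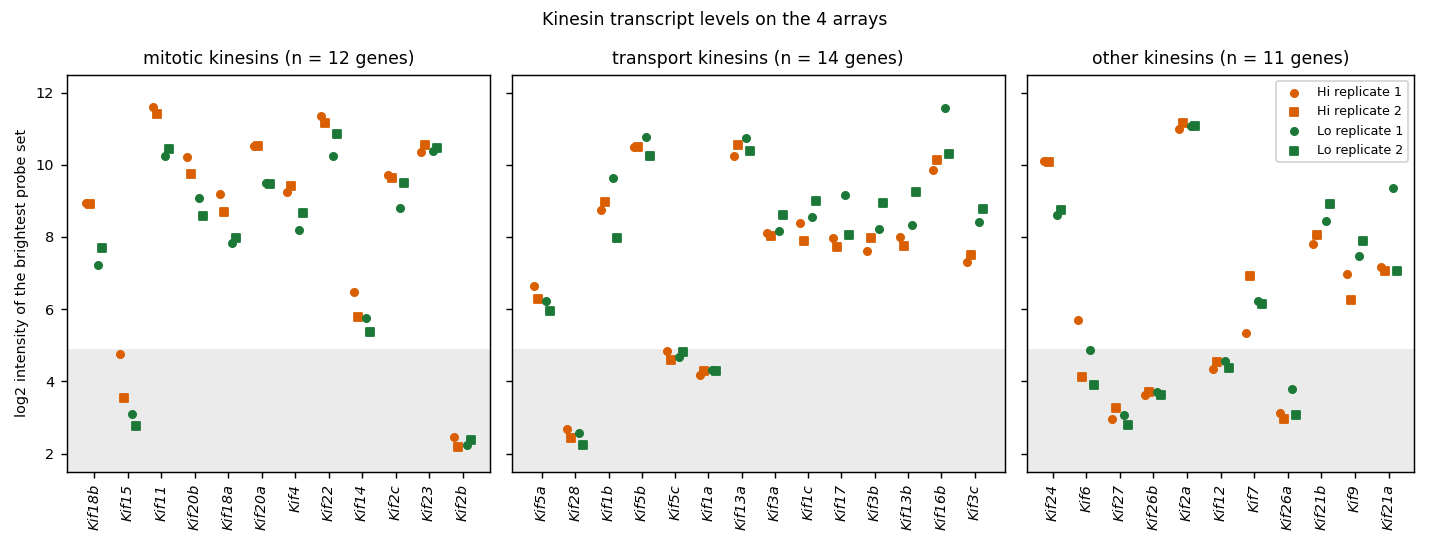
Log2 intensity of the brightest probe set of each kinesin gene on the 4 arrays, in 3 panels by role and ordered by the difference of Hi minus Lo; circles are replicate 1, squares replicate 2, orange Hi and green Lo, and the grey band lies at or under the highest dim limit, 4.87. The Hi arrays both stand above the Lo arrays in 10 of 12 mitotic genes, among them Kif15 under the dim limit, and in 1 of 14 transport genes.

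The motors that push spindle poles apart and steer chromosomes were measured by Kif11, Kif15, Kif18a, Kif22 and Kif4. Kif11, known as Eg5, slides spindle microtubules apart. On the log2 scale it read 11.60 and 11.41 in Hi and 10.24 and 10.43 in Lo, so the groups did not overlap. Hi exceeded Lo by 1.17 ± 0.16 (SE, n = 2 each), or 2.25-fold (limma adjusted p = 0.0981). The other 2 Kif11 probe sets differed by 1.54 ± 0.29 and 2.20 ± 0.45, in the same direction and by more. Kif15 is a partly redundant spindle motor. It read 4.77 and 3.53 in Hi and 3.08 and 2.76 in Lo, always under the dim limit, and so is known only to lie below it.

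Kif18a, which dampens chromosome movement at the metaphase plate, read 9.20 and 8.70 in Hi against 7.82 and 7.96 in Lo. Hi exceeded Lo by 1.06 ± 0.22 (SE), or 2.09-fold (limma adjusted p = 0.147). Its second probe set never passed the dim limit. Kif4, a motor bound to chromosomes and later to the midzone, read 9.26 and 9.41 in Hi and 8.18 and 8.67 in Lo, a difference of 0.91 ± 0.22 (limma adjusted p = 0.175). Kif22, which pushes chromosome arms away from the poles, read 11.35 and 11.15 in Hi and 10.24 and 10.85 in Lo. Its groups did not overlap, but Lo replicate 2 stood close to the lower Hi array. The difference was 0.70 ± 0.26 (limma adjusted p = 0.291), and 0.40 without Lo replicate 1. The other 2 Kif22 probe sets differed by 0.82 and 0.54.

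The microtubule depolymerases of the mitotic group were Kif18b, Kif2c and Kif2b. Kif18b, which trims astral microtubules, had the largest difference among the mitotic genes. It read 8.94 and 8.91 in Hi and 7.22 and 7.68 in Lo, a difference of 1.47 ± 0.21 (SE), or 2.76-fold (limma adjusted p = 0.101). It has 1 probe set, and its limma adjusted p was 0.0449 in the fit of gene averages and 0.0551 in that of brightest probe sets. Kif2c, known as MCAK and active at centromeres, read 9.72 and 9.64 in Hi and 8.80 and 9.50 in Lo. Its difference of 0.54 ± 0.28 (limma adjusted p = 0.413) was 0.19 without Lo replicate 1. Another Kif2c probe set differed by 1.83 ± 0.28, the next by 0.66 ± 0.17 and a dim one by 0.029, so the size for this gene depended on the probe set. Kif2b lay between 2.19 and 2.46, far under the dim limit.

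The motors of the midzone and of cytokinesis were Kif20a, Kif20b, Kif23 and Kif14. Kif20a, also called MKLP2, moves the chromosomal passenger complex to the midzone. It read 10.51 and 10.51 in Hi and 9.49 and 9.46 in Lo, the closest replicates of the mitotic group. Hi exceeded Lo by 1.04 ± 0.13 (SE), or 2.05-fold, with a 95% interval of 0.68 to 1.40 (limma adjusted p = 0.0949). In the limma fits with 1 value per gene its adjusted p was 0.039 for averages and 0.0486 for brightest probe sets.

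Kif20b, which acts late in cytokinesis, read 10.21 and 9.75 in Hi and 9.07 and 8.58 in Lo, a difference of 1.16 ± 0.27 (limma adjusted p = 0.166). A second bright Kif20b probe set differed by 0.94 ± 0.18, and the other 2 were dim on all 4 arrays. Kif14, a midbody motor that recruits the kinase citron, read 6.47 and 5.80 in Hi and 5.76 and 5.37 in Lo, a difference of 0.57 ± 0.30 (limma adjusted p = 0.419). Its lower Hi array and its higher Lo array were nearly level.

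Kif23, also called MKLP1, forms the centralspindlin complex with Racgap1 and was the exception among the bright mitotic genes. Its brightest probe set read 10.35 and 10.56 in Hi and 10.37 and 10.46 in Lo, with overlapping groups. The difference was 0.044 ± 0.15 (SE), with a 95% interval of -0.38 to 0.47, and it was -0.060 without Hi replicate 2. A dimmer Kif23 probe set read 8.74 and 8.62 in Hi and 8.05 and 8.17 in Lo, a difference of 0.57 ± 0.14 (limma adjusted p = 0.179). The third, which was under the dim limit, differed by 0.51. The array thus gave different sizes for different stretches of Kif23 transcript.

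**Figure D2:**
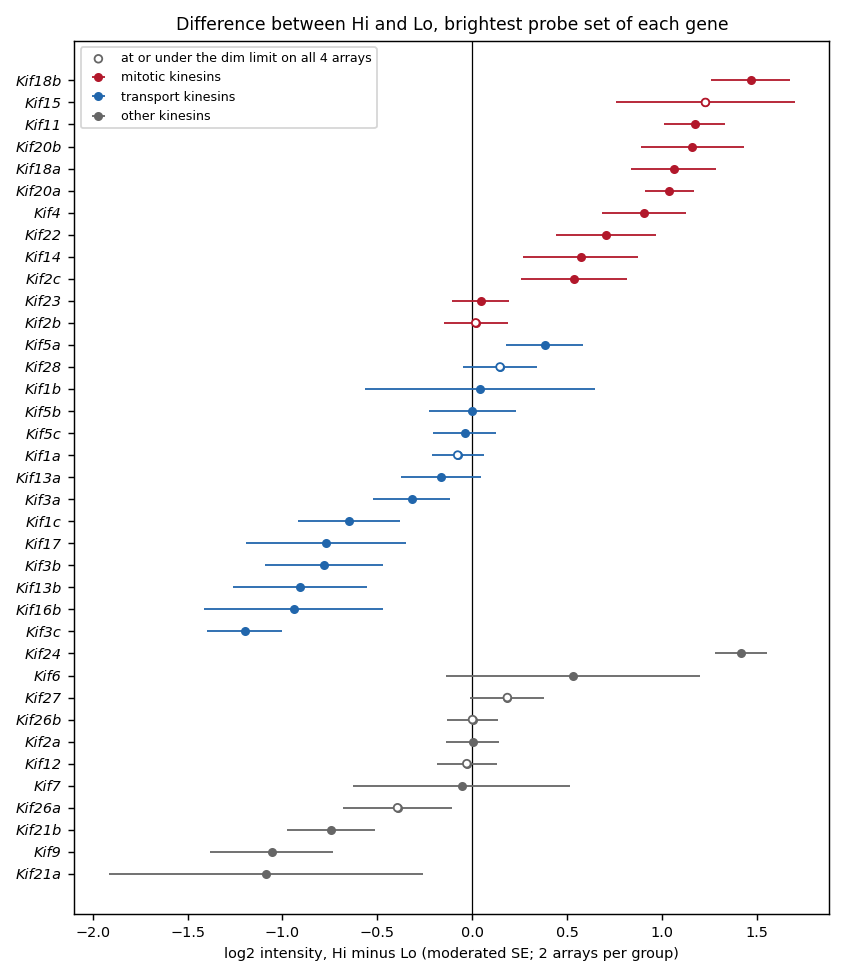
Difference in log2 intensity of Hi minus Lo for the brightest probe set of each of the 37 kinesin genes, with the moderated SE of limma as bars; red marks mitotic, blue transport and grey other kinesins, and open points never pass the dim limit. Mitotic genes run from 0.018 to 1.47 and transport genes from -1.20 to 0.38, while Kif24 at 1.42 stands apart from the other kinesins.

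Kif24, grouped with neither class, differed by as much as the highest mitotic genes. It encodes a depolymerase of the mother centriole that restrains the growth of cilia. The brightest of its 3 probe sets read 10.11 and 10.09 in Hi and 8.61 and 8.75 in Lo. Hi exceeded Lo by 1.42 ± 0.14 (SE), or 2.67-fold, with a 95% interval of 1.03 to 1.80 (limma adjusted p = 0.0846). In the limma fits with 1 value per gene its adjusted p was 0.0359 for averages and 0.0409 for brightest probe sets. A second probe set read 5.50 and 5.73 in Hi and 3.36 and 3.59 in Lo, where it was under the dim limit, and was at least 1.81-fold higher in Hi (limma adjusted p = 0.0839). Its remaining probe set differed by 0.49 ± 0.15. Leaving out single arrays moved the difference of the brightest probe set between 1.35 and 1.49.

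Transport kinesins tended the other way, with a median difference of -0.24 over 14 genes. Differences lay below 0 in 10 of the 14, against 46.4% of all genes. That count was 8 with all arrays moved to a common median and 8 after averaging a gene's probe sets. It was 11 after cyclic loess, and 9 to 12 without single arrays. The Hi arrays were both lower than the Lo arrays in 7, against 25.4% of all genes, and both higher in 1, Kif5a, against 30%. Of the 11 transport genes with a mean above the dim limit, 7 had both Hi arrays lower and 8 a difference below 0. Over all 12660 genes with such a mean, 4024 had both Hi arrays lower and 6598 a difference below 0. At an unadjusted limma p under 0.05, 1 of 14 was lower, Kif3c, against 11% of all genes, and 0 were higher, so this count was near the background. Leaving out Lo replicate 1 gave a median of -0.16, leaving out Lo replicate 2 gave -0.39, and it was -0.055 after averaging a gene's probe sets. It was -0.65 over the 11 genes with a mean over the 4 arrays above the dim limit, where all genes above the limit had -0.022. The median stayed below 0 under these settings, while its size moved with each of them.

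The brightest probe sets of the kinesin-2 genes Kif3a, Kif3b and Kif3c all had a difference below 0. Kif3a and Kif3b form a motor with the adaptor Kifap3 that serves cilia and vesicle transport, and Kif3c can pair with Kif3a. Kif3c read 7.30 and 7.49 in Hi and 8.40 and 8.79 in Lo, the lowest difference among the 37 genes at -1.20 ± 0.20 (SE), or 2.30-fold lower in Hi (limma adjusted p = 0.115). Its second probe set differed by -0.10 ± 0.16, so this size rests on 1 probe set. Kif3b read 7.62 and 7.98 in Hi and 8.22 and 8.94 in Lo, a difference of -0.78 ± 0.31 (limma adjusted p = 0.313), and 3 of its 4 probe sets had a difference below 0. Kif3a read 8.11 and 8.02 in Hi and 8.17 and 8.60 in Lo, a difference of -0.32 ± 0.20 (limma adjusted p = 0.487). All 4 Kif3a probe sets lay below 0, from -0.82 to -0.32. Kifap3 itself read 10.98 and 11.21 in Hi and 11.83 and 11.48 in Lo, a difference of -0.56 ± 0.20 (limma adjusted p = 0.269).

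Kinesin-1 genes carry a wide range of cargo, and Kif5b is their broadly used heavy chain. The brightest Kif5b probe set read 10.50 and 10.49 in Hi and 10.76 and 10.23 in Lo. The difference was 0.00 ± 0.23 (SE), with a 95% interval of -0.63 to 0.63 (limma adjusted p = 1), so the arrays leave room for a difference of that size either way. The other 5 Kif5b probe sets ran from -0.69 to 1.79, and both ends came from 1 Lo array each. The lowest read 10.82 on Lo replicate 1 against 8.10 to 8.79 on the other arrays, and the highest read 1.93 on Lo replicate 2 against 5.57 to 5.71. Kif5a, mainly a neuronal motor, read 6.64 and 6.29 in Hi and 6.21 and 5.95 in Lo, a difference of 0.38 ± 0.20 (limma adjusted p = 0.417). Its 3 probe sets had both signs. Kif5c stood at 4.58 to 4.83 and passed the dim limit on 1 array.

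Kinesin-3 genes carry vesicles, endosomes and mitochondria. Kif13b read 8.01 and 7.75 in Hi and 8.34 and 9.23 in Lo, a difference of -0.91 ± 0.35 (limma adjusted p = 0.305). Kif1c read 8.38 and 7.89 in Hi and 8.57 and 9.01 in Lo, a difference of -0.65 ± 0.27 (limma adjusted p = 0.325). In both genes the groups did not overlap, but the 3 dimmer probe sets of each had differences above 0. Kif16b, an early endosome motor, read 9.86 and 10.12 in Hi and 11.56 and 10.30 in Lo. Its difference of -0.94 ± 0.47 (limma adjusted p = 0.399) was -0.31 without Lo replicate 1, while all 3 of its probe sets lay below 0. Kif13a, which carries endosomes and Golgi cargo, read 10.24 and 10.54 in Hi and 10.74 and 10.37 in Lo. Its difference was -0.17 ± 0.21 with overlapping groups. Of its 5 probe sets 4 lay below 0, the lowest at -0.52, and 1 above, at 0.058.

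Kif1b and Kif17 turned on single Lo arrays. Kif1b read 8.74 and 8.97 in Hi and 9.64 and 7.98 in Lo, a difference of 0.043 ± 0.61 (SE) that became 0.87 when Lo replicate 1 was left out and -0.78 when Lo replicate 2 was. The 7 Kif1b probe sets ran from -0.19 to 0.84, with 4 above 0 and 3 below. Kif17, a dendritic and ciliary motor in neurons, read 7.96 and 7.74 in Hi and 9.17 and 8.06 in Lo. Its difference of -0.77 ± 0.42 (limma adjusted p = 0.43) was -0.21 without Lo replicate 1, and its other 2 probe sets lay above 0. In both genes the Lo arrays lay further apart than the Hi arrays. Kif1a, a neuronal vesicle motor, and Kif28 never passed the dim limit.

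**Figure D3:**
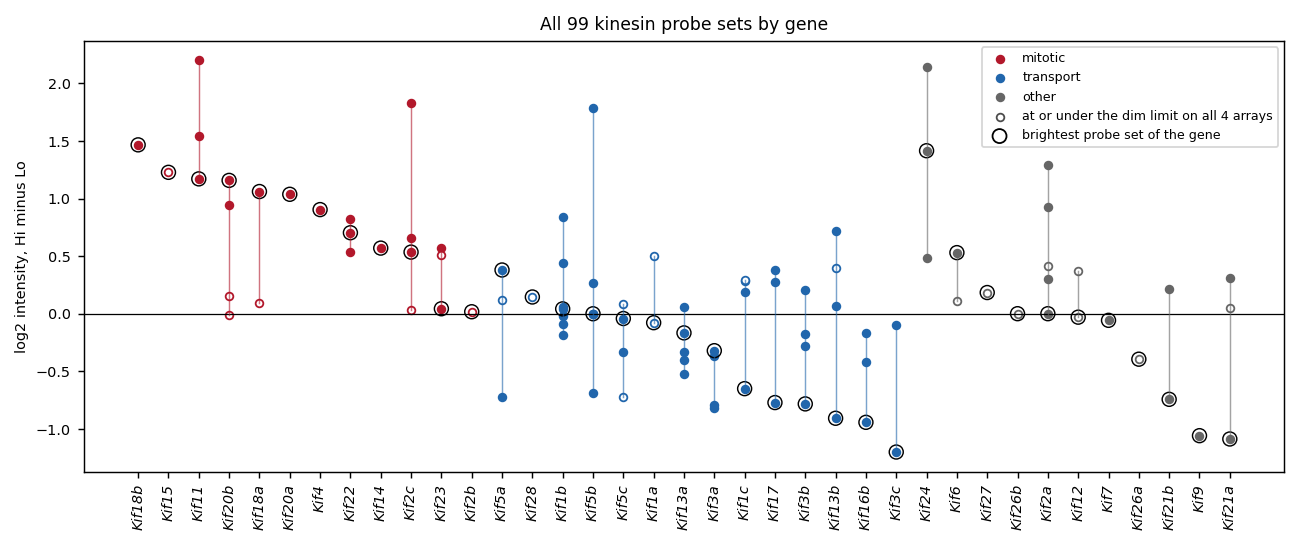
Difference in log2 intensity of Hi minus Lo for all 99 kinesin probe sets, in columns by gene; filled points are coloured by role, open points never pass the dim limit, and black rings mark the brightest probe set of a gene. Probe sets of both signs occur in 10 of the 13 transport genes with more than 1 probe set and in 1 of 6 such mitotic genes.

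Probe sets of 1 gene read different stretches of its transcripts and often differed in size, among mitotic genes (Kif2c from 0.029 to 1.83) as among transport genes (Kif3c from -1.20 to -0.10). Over all probe sets rather than genes, 24 of 25 mitotic probe sets had a difference above 0 (median 0.70), against 24914 of all 45037 probe sets. In 20 of the 25 both Hi arrays exceeded the Lo arrays, against 29.3% of all probe sets. An unadjusted limma p under 0.05 in that direction was reached by 14, against 9.05% of all probe sets. Of the 52 transport probe sets 24 lay above 0 and 28 below, with a median of -0.059 against 0.041 over all probe sets. The Hi arrays were both lower in 15 of them, against 22% of all probe sets. At an unadjusted limma p under 0.05, 3 of the 52 were higher and 3 lower, against 9.05% and 8.91% of all probe sets, so neither count exceeded the background. Among the mitotic genes with more than 1 probe set, Kif20b alone had both signs, and there the probe set below 0 was dim, at -0.0066. The probe sets of a gene share its transcript and the 4 arrays, so they are not replicates.

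Of the other kinesins, Kif2a was bright and split between probe sets. It encodes a depolymerase of spindle poles that also acts in neurons. Its brightest probe set read 10.99 and 11.16 in Hi and 11.08 and 11.07 in Lo, a difference of 0.00 ± 0.14 (SE), while another read 8.86 and 8.90 in Hi and 8.22 and 7.70 in Lo, a difference of 0.93 ± 0.23 (limma adjusted p = 0.174). All 5 Kif2a probe sets lay at or above this value of 0.00, up to 1.29, where Lo replicate 1 alone read low at 5.10 against 7.04 to 7.54.

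Kif21b, which slows microtubule growth and is known from lymphocytes and neurons, had separate groups. It read 7.81 and 8.06 in Hi and 8.44 and 8.92 in Lo, a difference of -0.74 ± 0.23 (limma adjusted p = 0.233), and its dimmer probe set differed by 0.22. Its relative Kif21a read 7.17 and 7.06 in Hi and 9.36 and 7.05 in Lo. The difference of -1.09 ± 0.83 (SE) came from Lo replicate 1 and was 0.067 without it. The other 2 Kif21a probe sets differed by 0.31 and 0.052, the latter under the dim limit on all 4 arrays. Kif9, a motor of motile cilia, read 6.98 and 6.26 in Hi and 7.48 and 7.88 in Lo, a difference of -1.06 ± 0.32 (limma adjusted p = 0.227) with separate groups.

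The remaining kinesins of cilia and signalling were weak or variable. Kif7, which acts in Hedgehog signalling at the cilium tip, read 5.35 and 6.93 in Hi and 6.24 and 6.15 in Lo, so its Hi arrays lay on either side of both Lo arrays. Kif6 read 5.71 and 4.12 in Hi and 4.86 and 3.91 in Lo and was above the dim limit on 2 arrays. Kif12, Kif26a, Kif26b and Kif27 never passed the dim limit. Together 8 of the 37 genes were that dim, and no fold is given for them.

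**Figure D4:**
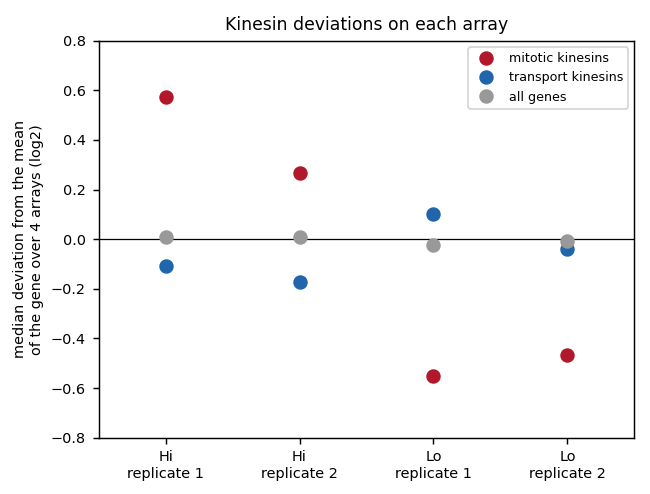
Median deviation of each array from the mean of the gene over the 4 arrays, in log2 units, for 12 mitotic kinesins (red), 14 transport kinesins (blue) and all genes (grey). The mitotic genes lie at 0.57 and 0.27 on the Hi arrays and at -0.55 and -0.47 on the Lo arrays, and the transport genes between -0.17 and 0.10.

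Setting the classes side by side, the median difference of mitotic genes exceeded that of transport genes by 1.21 on the log2 scale. Each array is given separately here. Relative to the mean of its own gene, the mitotic median was 0.57 and 0.27 on the Hi arrays and -0.55 and -0.47 on the Lo arrays. The transport median was -0.11 and -0.17 on the Hi arrays and 0.10 and -0.040 on the Lo arrays, and that of all genes stayed between -0.024 and 0.0087. Without 1 array the gap between the classes ran from 0.97 without Hi replicate 1 to 1.40 without Lo replicate 2. It was 0.78 after averaging a gene's probe sets and 1.69 with dim probe sets left out. These are descriptions of a fixed set of genes on 4 arrays and carry no test.

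Genes that work with the kinesins were listed from textbook knowledge, again with earlier results of these data known. Among 18 partners of mitotic kinesins and regulators of the spindle, all 18 lay above 0, against 53.6% of all genes. The median over the 18 was 0.76. Of the 18, 14 had an unadjusted limma p under 0.05 in that direction, against 9.25% of all genes, and 0 were lower. The kinase gene Aurkb, whose complex Kif20a moves, read 11.18 and 11.14 in Hi and 9.72 and 9.34 in Lo, a difference of 1.63 ± 0.19 (limma adjusted p = 0.0947). Plk1, a mitotic kinase, read 9.92 and 9.71 in Hi and 8.05 and 8.40 in Lo, a difference of 1.59 ± 0.19 (limma adjusted p = 0.0949). The citron kinase gene Cit, the partner of Kif14, differed by 1.21 ± 0.16 (limma adjusted p = 0.0968).

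Of 6 kinesins that bear other names, 2 were higher and 1 lower in Hi at an unadjusted limma p under 0.05, against 9.25% and 11% of all genes. The centromere motor gene Cenpe read 9.02 and 9.13 in Hi and 8.04 and 8.32 in Lo, a difference of 0.89 ± 0.17 (limma adjusted p = 0.129), and the spindle motor gene Kifc1 differed by 0.79 ± 0.14 (limma adjusted p = 0.12). Stard9, a kinesin of the centrosome, read 4.41 and 4.81 in Hi, under the dim limit, and 5.83 and 5.89 in Lo, so it was at least 1.99-fold lower in Hi with a limma adjusted p of 0.107. Cenpe and Kifc1 are also on the list of partners.

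Adaptors of transport kinesins leaned lower in Hi. Of 17 measured among 20 listed, 14 lay below 0, against 46.4% of all genes. The median over the 17 was -0.38. At an unadjusted limma p under 0.05, 4 were lower, against 11% of all genes, and 0 were higher. Madd, which links kinesin-3 motors to vesicles, read 9.27 and 9.30 in Hi and 10.13 and 10.40 in Lo, a difference of -0.98 ± 0.16 (limma adjusted p = 0.112). The kinesin light chain gene Klc4 differed by -0.86 ± 0.22 (limma adjusted p = 0.179) and Kifbp, a protein that binds and restrains several kinesins, by -0.52 ± 0.15 (limma adjusted p = 0.203).

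Dynein and dynactin, which carry cargo the opposite way, had a median of -0.060 over 21 measured genes. At an unadjusted limma p under 0.05, 0 were higher and 3 lower, near the 11% of all genes that were lower. Of the 3, Dynlrb2 read 3.68 and 3.68 in Hi, under the dim limit, and 4.77 and 5.11 in Lo. It was at least 1.05-fold lower in Hi (limma adjusted p = 0.100). The heavy chain gene Dync1h1, also among the 3, differed by -0.61 ± 0.17 (limma adjusted p = 0.197). Tubulin genes, the tracks themselves, had a median of 0.27 over 13 measured genes. Of the 13, 10 lay above 0 and 3 below, against 53.6% and 46.4% of all genes. At an unadjusted limma p under 0.05, 3 were higher and 1 lower, against 9.25% and 11% of all genes. Tubg1, the gamma tubulin that seeds spindle microtubules, read 9.62 and 9.58 in Hi and 8.07 and 8.53 in Lo, a difference of 1.30 ± 0.21 (limma adjusted p = 0.111). Tuba8 differed by 1.08 ± 0.19 (limma adjusted p = 0.121) and Tubb4b by 0.74 ± 0.15 (limma adjusted p = 0.14). The 1 counted as lower was Tubb4a, at -0.96 ± 0.32 (limma adjusted p = 0.247). Tubb1 had the largest difference of the list, -1.98 ± 0.75 (limma adjusted p = 0.295). It read 5.99 and 6.34 in Hi and 9.17 and 7.12 in Lo.

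**Figure D5:**
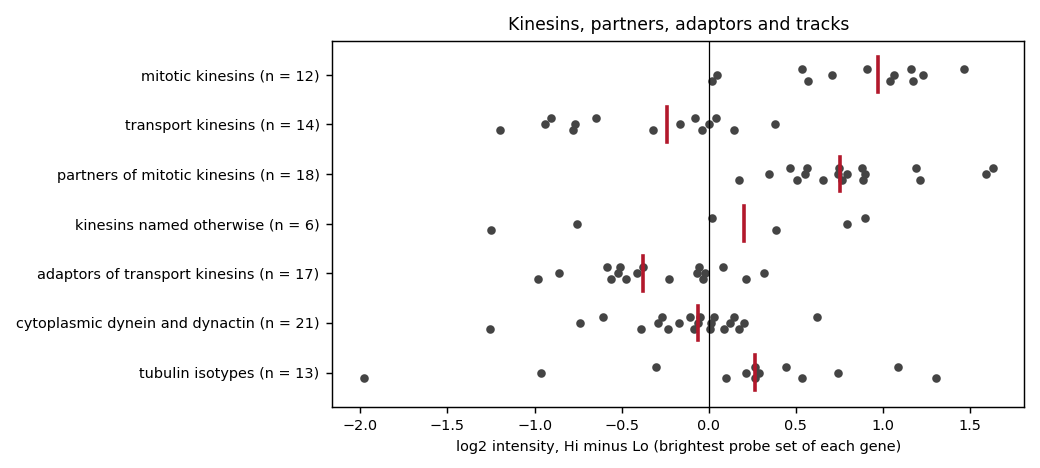
Difference in log2 intensity of Hi minus Lo for the genes of each list, 1 point per gene by its brightest probe set, with red bars at the median; the number of genes is beside each name. Mitotic kinesins (median 0.97) and their partners (0.76) lie to the right of 0, and transport kinesins (-0.24) and their adaptors (-0.38) lie mostly to the left.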

How the data were processed

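The authors deposited linear intensities, a value for each probe set on each array, made with RMA per the submitters' processing notes; its version and the background correction are not given in the sources used here. Quantile steps in RMA give arrays like distributions, which hides any difference in total RNA content. The labels' protocols state amplification of 5 ng total RNA with a NuGEN Ovation system, which can compress or spread differences. Intensities (2.957 to 22122) were turned into log2 values with no offset. The 64 control probe sets were left out.

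Hi minus Lo was fitted over 45037 probe sets with limma 3.58.1 (lmFit, eBayes, no block, two-sided; 2 residual degrees of freedom and 1.98 from the prior) in R 4.3.3, with Benjamini-Hochberg adjustment and calls under 0.05; Python 3.11.15 did the rest. The platform annotation gave 1 symbol to 34945 probe sets, several to 932 and none to 9160. Where a group's arrays both lay under the dim limit, its level was taken as that limit and the fold is a lower bound.

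The rule named all mitotic and transport kinesins and the other kinesins above the dim limit on at least 1 array. Of each further list, counts and at most 3 genes with small p were named. Kif3 and centralspindlin partners, the tubulin genes Tubb1 and Tubb4a and single markers were added after their values were seen. Members, lists, motifs and roles were chosen with earlier results of these data known. Alternatives were other scalings, offset, filter, prior, probe set rules, a replicate block, other roles and leaving out each array. The fit was run on data simulated with variances from its own prior. This checked the size of set differences and not the calls in these data. The number of arrays limits the precision. Sca1 (Ly6a) and some other listed genes were not analysed here.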

Additional observations from a re-analysis of the deposited data

How the results depend on the processing

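The fit rests on 2 arrays per group, with 2 residual degrees of freedom, and probe sets near the dim limit carry little signal over background. The count of called kinesin probe sets stayed at 0 under the scaling, offset, filter, prior and leave-one-out alternatives. It became 3 genes after averaging a gene's probe sets and 2 with the brightest, where fewer tests were adjusted for. The labels give both groups replicate numbers 1 and 2 without saying what they share, and same-numbered deviations correlated at 0.072 across probe sets; with a replicate block 0 kinesin probe sets were called, and no call changed.

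The mitotic median of 0.97 was 1.07 with all arrays moved to a common median, 0.79 with an offset of 16 and 0.73 after averaging a gene's probe sets. It was 0.91 with Kif2a counted as mitotic, and 0.71 to 1.02 without single arrays. The transport median of -0.24 was -0.15 with all arrays moved to a common median and -0.65 after the filter on dim probe sets (mean log2 of at least 6). It was -0.055 after that averaging, and -0.39 to -0.16 without single arrays. Their gap of 1.21 was 1.02 with the offset, 1.69 with the filter, 0.78 after averaging, 1.03 with Kif2a as mitotic and all remaining members as transport, and 0.97 to 1.40 without single arrays. The causes were not tested.

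Differences of 17 of the 37 genes changed sign under at least 1 alternative, 2 of them mitotic (Kif2b and Kif23) and 9 transport. With a common median Kif7 was at 0.038, Kif1a at 0.018, Kif5c at 0.054 and Kif12 at 0.066. After cyclic loess Kif5b was at -0.013, Kif2b at -0.043, Kif26b at -0.063 and Kif2a at -0.023. After averaging a gene's probe sets Kif12 was at 0.17, Kif13b at 0.071, Kif1a at 0.21, Kif1c at 0.028 and Kif5a at -0.073. Without single arrays the ranges were -0.26 to 0.27 for Kif5b, -0.12 to 0.15 for Kif2b, -0.84 to 0.73 for Kif7, -0.26 to 1.33 for Kif6, -0.12 to 0.062 for Kif12, -0.049 to 0.052 for Kif26b, -0.082 to 0.084 for Kif2a, -0.16 to 0.082 for Kif5c, -0.78 to 0.87 for Kif1b, -0.060 to 0.15 for Kif23, -2.24 to 0.067 for Kif21a, -0.35 to 0.019 for Kif13a and -0.027 to 0.32 for Kif28.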
